A study of Mus musculus with 6 samples.

Results

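The genes described are the drug and xenobiotic enzymes of mouse kidney outside a few P450 genes that are left out: UDP-glycosyltransferases (Ugt1, Ugt2, Ugt3), sulfotransferases (Sult), flavin monooxygenases (Fmo), carboxylesterases (Ces), medium-chain acyl-CoA synthetases (Acsm), epoxide hydrolases (Ephx) and cytochrome P450 genes of the Cyp1 to Cyp4 families. They were chosen by the start of their symbol among the 12546 genes listed in both deposited tables, leaving out pseudogenes and Cyp2a4, Cyp2a5, Cyp2d9, Cyp2d12, Cyp2d22, Cyp2d26, Cyp2e1, Cyp2j5, Cyp4a10 and Cyp4a14. The name rule took 64 genes, and 1 of these, Fmod, encodes fibromodulin, a matrix proteoglycan and not an enzyme. Fmod had 2.18 and 1.60 FPKM in 24M_1 and 24M_2, against 2.54 and 2.58 FPKM in 2M (limma adjusted p = 0.321), and is not described further. The remaining 63 enzyme genes are 15 Ugt, 12 Cyp2, 11 Cyp4, 9 Ces, 5 Sult, 4 Fmo, 4 Acsm and 2 Ephx genes and 1 Cyp1 gene. A further 10 genes with such names, among them Cyp1a1, Cyp2b10 and Cyp3a13, are listed only in the second table and are no members.

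Bulk RNA-seq of whole kidney was deposited for 4 libraries labelled 24M and 2 labelled 2M, all from wild-type mice in a study of natural aging. Strain and sex are not in the labels, nor whether each library is a separate animal. A p-value here weighs the age difference only against the spread between these libraries, which limma takes partly from other genes. That spread may be technical. The first table holds 24M_1, 24M_2, 2M_1 and 2M_2 and is where age was tested. The second table, made separately, holds 24M_3 and 24M_4, and its values are set beside the others without a test. Where these values differ from 2M, age and the separate making of the tables cannot be told apart. Values are FPKM, fragment numbers scaled to transcript length and library size, so levels of different genes can be compared per length.

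Drug-metabolizing enzymes work in sequence. P450 enzymes and flavin monooxygenases add oxygen to a lipophilic compound, esterases and epoxide hydrolases split esters and epoxides, and transferases then attach glucuronic acid, sulfate or an amino acid so that the product can be excreted in urine or bile. The same enzymes handle endogenous substrates, among them steroids, bile acids, catecholamines and the epoxides of arachidonic acid, and in kidney most of this activity is known from the proximal tubule.

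Over all genes tested, limma called 0.761% higher and 0.813% lower in 24M_1 and 24M_2 than in 2M. All 12 proximal tubule markers were listed in every library, with summed levels of 2928 and 2744 FPKM in 24M_1 and 24M_2 and 2572 and 2760 FPKM in the 2M libraries, and of 3198 and 3847 FPKM in 24M_3 and 24M_4. Of these 12, 1 gene, Slc22a8, was higher by limma and none was lower. The Y-linked gene Ddx3y stood between 13.4 and 20.3 FPKM in the 6 libraries. The library 24M_3 stood apart in macrophage markers, with all 8 listed and a sum of 2208 FPKM, against 314 in 24M_4, 155 to 250 in 24M_1 and 24M_2 and 170 to 204 in 2M. Of the 8, 1 gene, C1qa, was higher by limma in 24M_1 and 24M_2 than in 2M (log2 change 0.85, limma adjusted p = 0.0215). At an unadjusted p below 0.05, 4 of the 8 were higher, against 6.96% of all genes, and 0 were lower. Adipocyte markers summed to 16.8 to 17.7 FPKM in 24M_1 and 24M_2, to 37.6 to 45.6 in 2M and to 8.02 and 17.4 in 24M_3 and 24M_4, with Adipoq, Cfd, Plin1 and Ucp1 listed at 0 in 24M_1 and 24M_2. Of 6 tested adipocyte genes, 5 were lower by limma: Adipoq, Cfd, Cidea, Retn and Ucp1. They met the filter of 1 FPKM in at least 2 libraries only through 2M, where they are high. Genes kept in this way could hardly be called higher, so the count is no support for a loss. Fabp4, which made up most of the sums in 24M_1 and 24M_2, did not pass. It had 17.3 and 16.4 FPKM there, against 19.2 and 20.8 in 2M (limma adjusted p = 0.242). Urothelium markers summed to 0.662 in 24M_1, 36.4 in 24M_2, 2.72 to 3.02 in 24M_3 and 24M_4 and 59.0 to 76.8 in 2M. Red cell markers summed to 23.4 and 48.6 FPKM in 24M_1 and 24M_2, against 155 to 196 in 2M, and to 200 and 168 FPKM in 24M_3 and 24M_4, near the 2M level. All 5 red cell log2 changes were negative and 1 gene, Hbb-bt, was lower by limma. Collecting duct markers summed to 153 and 175 FPKM in 24M_1 and 24M_2 and 210 to 233 in 2M, with all 8 log2 changes negative and 1 gene, Aqp4, lower by limma, and to 208 and 187 FPKM in 24M_3 and 24M_4. Endothelial markers summed to 61.9 and 56.8 FPKM in 24M_1 and 24M_2 and 72.1 to 76.4 in 2M, with 5 of 6 log2 changes negative and 1 gene, Tek, lower by limma, and to 30.4 and 29.8 FPKM in 24M_3 and 24M_4. Hepatocyte markers, among them Alb at 4.13 and 3.19 FPKM in 24M_1 and 24M_2 and 10.3 and 3.17 in 2M, had 0 of 7 tested genes past the limma threshold. At an unadjusted p below 0.05, 3 of the 7 were lower, against 9.94% of all genes, and 0 were higher. The hepatocyte sums were 138 in 24M_1 and in 24M_2, 60.2 and 111 in 24M_3 and 24M_4 and 181 to 213 in 2M. The marker lists here and below were chosen with earlier results of these data known, so their counts are descriptions. The part of these cell types in the results was not tested. Because these are bulk samples, fewer cells of a type and less RNA per cell cannot be told apart.

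The arachidonic acid epoxygenase gene Cyp2c23 was higher in the kidney libraries 24M_1 and 24M_2 than in 2M, and Acsm3, Ephx1, Ugt2b5 and Ugt2b37 were lower. In the untested libraries 24M_3 and 24M_4, Cyp2c23 stood above and Acsm3 below both 2M libraries in each. Ugt2b5 stood above both 2M libraries there, and Ephx1 and Ugt2b37 stood above them in 24M_3 and below them in 24M_4. Of the 63 enzyme genes, 55 reached the filter of 1 FPKM in at least 2 of the 4 libraries and were tested with limma on log2(FPKM + 1) among 11437 genes. A limma adjusted p below 0.05 was reached by 5 of the 55 (9.09%), against 1.57% of all genes tested. Of these 5, 1 was higher in 24M, where 0.761% of all genes tested were, and 4 were lower, where 0.813% of all genes were. An unadjusted p below 0.05 was reached by 19 of the 55, against 16.9% of all genes, with 9 higher, against 6.96%, and 10 lower, against 9.94%. Both 24M libraries of the first table lay above both 2M libraries for 14 of the 55 genes and below them for 21, against 20.8% and 29.6% of all genes. The median log2 change of the 55 genes was -0.05, and that of all genes tested was -0.02. With 2M_1 or 2M_2 left out, in fits where the remaining 2M library is taken to vary as the 24M libraries do, limma called 0 genes of any kind. An unadjusted p below 0.05 was then reached by 1215 genes without 2M_1 and 1452 without 2M_2, of which 20 and 15 were enzyme genes.

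**Figure D1:**
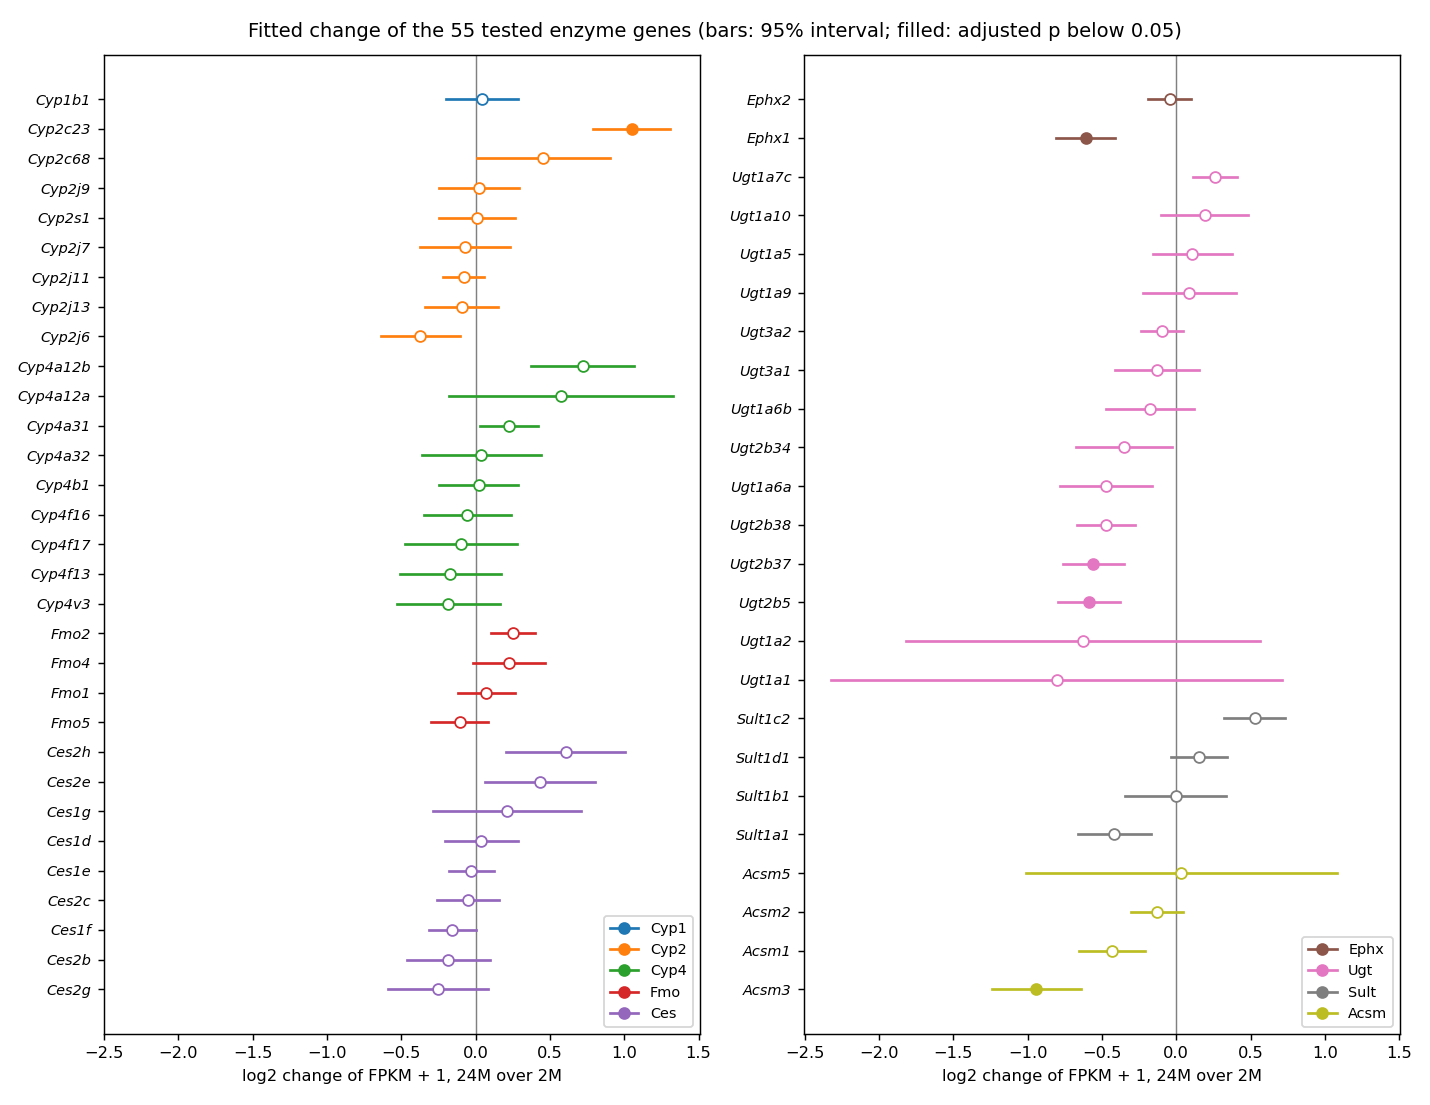
Each point is the fitted log2 change of FPKM + 1, 24M_1 and 24M_2 over 2M_1 and 2M_2, for 1 of the 55 tested enzyme genes, with its 95% interval as a bar and its family as the colour. Filled points have a limma adjusted p below 0.05: Cyp2c23 lies to the right, and Acsm3, Ephx1, Ugt2b5 and Ugt2b37 lie to the left of 0.

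Over all 63 genes, the summed level was 3764 FPKM in 24M_1 and 3944 in 24M_2, against 3916 in 2M_1 and 4217 in 2M_2, which overlap. In the second table the sums were 3306 FPKM in 24M_3 and 4709 in 24M_4. These sums were 1.30% and 1.35% of all FPKM in 24M_1 and 24M_2 and 1.37% and 1.43% in 2M_1 and 2M_2. A few genes carried most of them: 10 of the 63 had a mean of at least 100 FPKM over the first table, led by Cyp4b1, Acsm2, Sult1d1 and Ugt2b38, and 29 had a mean under 5 FPKM.

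Among the Cyp2 genes, 8 of 12 were tested, 1 was higher, none was lower, and the median log2 change was -0.03. Cyp2c23, known in older work as Cyp2c44, makes epoxides of arachidonic acid that act on renal vessels and tubular sodium transport. It lies on the minus strand of chromosome 19 (GRCm38, 44005022 to 44029208). Cyp2c23 had 21.7 and 21.1 FPKM in 24M_1 and 24M_2, against 10.8 and 8.94 FPKM in 2M_1 and 2M_2. The ages did not overlap, and the 24M mean was 2.17 times the 2M mean, with a log2 change of 1.05 ± 0.10 (SE; 95% interval 0.79 to 1.31; limma adjusted p = 0.0193). Its level in 24M_3 and 24M_4 was 22.8 and 22.4 FPKM, also above both 2M libraries. Without 24M_1 the adjusted p by limma was 0.0767 and without 24M_2 it was 0.0602, at log2 changes of 1.03 and 1.07.

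The other tested Cyp2c gene, Cyp2c68, stood near the filter, at 1.58 and 1.21 FPKM in 24M_1 and 24M_2 and 1.01 and 0.505 in the 2M libraries (log2 change 0.46, limma adjusted p = 0.290). It had 0.324 and 0.168 FPKM in 24M_3 and 24M_4, below both 2M libraries. Cyp2c68 and Cyp2c69 are close copies, so their values are uncertain. The Cyp2j genes encode epoxygenases of polyunsaturated fatty acids, and none of the 5 tested passed. Cyp2j6 was closest, at 8.93 and 9.50 FPKM in 24M_1 and 24M_2 and 13.4 and 11.2 FPKM in the 2M libraries, with a log2 change of -0.37 ± 0.11 (SE), at a limma adjusted p of 0.180. It stood at 16.1 and 13.5 FPKM in 24M_3 and 24M_4, above both 2M libraries. The abundant Cyp2j11 had 111 ± 0.804 FPKM in 24M, against 117 ± 0.482 FPKM for 2M (SD, n = 2 each; limma adjusted p = 0.515), and Cyp2j13 had 94.8 ± 11.8 and 101 ± 4.43 (0.674). Of the remaining tested Cyp2 genes, Cyp2j7, Cyp2j9 and Cyp2s1 lay between 1.13 and 3.71 FPKM in every library of the first table.

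The Cyp4 genes encode fatty acid omega-hydroxylases. Of 11, 9 were tested and none passed, with a median log2 change of 0.02. Cyp4b1, which in rodents also activates aromatic amines and furans, was the most abundant enzyme gene of the set, at 763 and 891 FPKM in 24M_1 and 24M_2 and 760 and 870 in the 2M libraries. Its libraries overlapped, and the log2 change was 0.02 with a 95% interval of -0.24 to 0.28 (limma adjusted p = 0.949). In 24M_3 and 24M_4 Cyp4b1 stood at 606 and 1107 FPKM, on either side of the 2M libraries.

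The 4 Cyp4a genes lie next to Cyp4b1 on chromosome 4, and all had a positive log2 change, of 0.04 to 0.72. Cyp4a12a and Cyp4a12b are near-identical neighbours, known in mouse as androgen-induced omega-hydroxylases of arachidonic acid, and reads could be split between them. Cyp4a12b had 13.3 and 15.2 FPKM in 24M_1 and 24M_2, against 7.21 and 9.37 in 2M_1 and 2M_2, giving a log2 change of 0.72 ± 0.14 (SE), at a limma adjusted p of 0.0844. Its levels in 24M_3 and 24M_4 were 18.0 and 32.6 FPKM, above both 2M libraries. Cyp4a12a had 55.04 and 49.9 FPKM in 24M_1 and 24M_2 and 27.1 and 44.8 in the 2M libraries, which were far apart from each other (log2 change 0.57, 95% interval -0.18 to 1.33, limma adjusted p = 0.392). In 24M_3 and 24M_4 it was at 32.1 and 104 FPKM. The summed level of the 4 Cyp4a genes was 175 and 173 FPKM in 24M_1 and 24M_2, against 120 and 152 in 2M.

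Cyp4a31 stood at 106 ± 0.158 FPKM in 24M, against 90.6 ± 8.24 FPKM for 2M (SD, n = 2 each), a log2 change of 0.22 (limma adjusted p = 0.2496), and at 111 and 106 FPKM in 24M_3 and 24M_4. Of 5 androgen-responsive genes of mouse kidney, 1, Slco1a1, was lower by limma (log2 change -0.84), where 0.813% of all genes tested were. None was higher. At an unadjusted p below 0.05, 4 of the 5 were lower, against 9.94% of all genes, with log2 changes of -0.70 for Odc1, -0.43 for Cyp7b1 and -0.27 for Gusb. The remaining gene, Kap, overlapped between ages, at a log2 change of 0.05. The androgen list was chosen with earlier results of these data known, so its counts are descriptions. Slco1a1 is also counted among the straight tubule markers, and Gusb among the genes that work with these enzymes. The part of androgen response in the Cyp4a values was not tested. The low gene Cyp4a32 had 1.29 and 1.61 FPKM in 24M_1 and 24M_2 and 1.10 and 1.69 in the 2M libraries. Cyp4f13, Cyp4f16, Cyp4f17 and Cyp4v3 had log2 changes of -0.18 to -0.06, overlapped between ages and did not pass. All 4 were under 5 FPKM in each library of the first table, and Cyp4f13, Cyp4f16 and Cyp4f17 stood above both 2M libraries in 24M_3 and 24M_4, at 8.79 and 9.91, 2.90 and 2.72, and 4.89 and 3.31 FPKM.

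The single Cyp1 gene, Cyp1b1, hydroxylates estrogens and polycyclic hydrocarbons and is a target of the aryl hydrocarbon receptor. Cyp1b1 had 6.19 and 5.85 FPKM in 24M_1 and 24M_2 and 5.46 and 6.15 FPKM in the 2M libraries, with no separation of the ages (log2 change 0.05, 95% interval -0.20 to 0.29). Its level in 24M_3 was 11.6 FPKM, and in 24M_4 it was 6.49.

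Flavin monooxygenases oxidize nitrogen and sulfur atoms of drugs and amines. None of the 4 Fmo genes passed, and 3 had a positive log2 change. Fmo2 had 65.0 and 64.2 FPKM in 24M_1 and 24M_2, against 53.3 and 54.9 in 2M_1 and 2M_2. These ages did not overlap, although the difference was small, a log2 change of 0.25 ± 0.06 (SE), at a limma adjusted p of 0.130, and 24M_3 and 24M_4 stood at 62.3 and 63.9 FPKM. Fmo1, the main form known from mouse kidney, had 118 ± 2.56 FPKM in 24M, against 112 ± 9.81 FPKM for 2M (SD, n = 2 each; limma adjusted p = 0.689), but 61.5 and 65.1 FPKM in 24M_3 and 24M_4, below both 2M libraries. Fmo4 had 8.69 and 7.69 FPKM in 24M_1 and 24M_2 and 7.10 and 6.62 in 2M (limma adjusted p = 0.328), and Fmo5 had 20.8 ± 0.337 and 22.5 ± 1.42 (0.535).

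The 2 epoxide hydrolases differed in what the test found. Ephx1, the microsomal enzyme that opens epoxides of xenobiotics, lies on the minus strand of chromosome 1 (GRCm38, 180976210 to 181020904). Ephx1 had 12.2 and 13.0 FPKM in 24M_1 and 24M_2, against 19.1 and 20.4 FPKM in 2M_1 and 2M_2. The 24M libraries were both lower, by 36.2% on average, with a log2 change of -0.61 ± 0.08 (SE; 95% interval -0.81 to -0.41; limma adjusted p = 0.0351). Without 24M_1 the limma adjusted p was 0.118 and without 24M_2 it was 0.0808. The second table was mixed, with 25.0 FPKM in 24M_3, above both 2M libraries, and 16.5 in 24M_4, below both. Ephx2, the soluble enzyme that hydrolyses arachidonic acid epoxides such as those made by Cyp2c23, had 178 ± 4.36 FPKM in 24M, against 184 ± 4.76 FPKM for 2M (SD, n = 2 each). Its log2 change was -0.04 with a 95% interval of -0.19 to 0.10 (limma adjusted p = 0.745). The difference between the changes of both genes was not tested.

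Carboxylesterases hydrolyse ester drugs and, for several Ces1 enzymes, triacylglycerol. All 9 Ces genes lie on chromosome 8, all were tested and none passed, with log2 changes of -0.25 to 0.60 and a median of -0.03. The most abundant, Ces1f, had 235 and 246 FPKM in 24M_1 and 24M_2 and 259 and 277 in the 2M libraries (log2 change -0.16, limma adjusted p = 0.2996). Ces1d had 76.3 ± 9.22 FPKM in 24M, against 74.1 ± 4.45 in 2M, and Ces2c had 74.5 ± 7.29 in 24M and 77.0 ± 2.66 in 2M (SD, n = 2 each), with limma adjusted p of 0.883 and 0.815. Larger differences were seen in low genes: Ces2h had 4.397 and 3.29 FPKM in 24M_1 and 24M_2 and 2.48 and 1.88 in the 2M libraries, a log2 change of 0.60 ± 0.16 (SE), at a limma adjusted p of 0.162. Ces2e had 5.63 and 4.55 FPKM in 24M_1 and 24M_2 and 3.99 and 3.06 in 2M (limma adjusted p = 0.244). The remaining 4, Ces1e, Ces1g, Ces2b and Ces2g, had log2 changes of -0.25 to 0.21, with Ces1e at 36.1 and 36.5 FPKM in 24M_1 and 24M_2 and 36.7 and 37.3 in 2M. The Ces2h level of 24M_3, 2.54 FPKM, was close to that of 2M_1, and that of 24M_4 was 5.03. The Ces1 genes and the Ces2 genes are close copies of one another, so reads may be split between them.

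UDP-glucuronosyltransferases, here the Ugt1 and Ugt2 genes, attach sugar acids to phenols, steroids, bilirubin and drugs. Of the 15 Ugt genes 14 were tested, 2 were lower, none was higher, and the median log2 change was -0.26. Both lower genes belong to the Ugt2b cluster on chromosome 5, whose enzymes are known for glucuronidation of steroids and drugs. To show how alike these genes are, the 250 bases before the RefSeq start of each are given (GRCm38.p6, minus strand, read 5′ to 3′), with the longest run shared by Ugt2b5, Ugt2b37 and Ugt2b38 in capitals. The promoter of Ugt2b34, the other Ugt2b gene among the 63, does not hold that run.
Ugt2b5 (chr5:87140341-87140590): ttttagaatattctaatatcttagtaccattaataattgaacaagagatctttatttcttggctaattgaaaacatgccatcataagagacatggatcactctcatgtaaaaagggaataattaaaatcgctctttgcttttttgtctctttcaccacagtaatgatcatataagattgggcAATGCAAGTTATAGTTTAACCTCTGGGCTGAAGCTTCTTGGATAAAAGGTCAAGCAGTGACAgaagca
Ugt2b37 (chr5:87254789-87255038): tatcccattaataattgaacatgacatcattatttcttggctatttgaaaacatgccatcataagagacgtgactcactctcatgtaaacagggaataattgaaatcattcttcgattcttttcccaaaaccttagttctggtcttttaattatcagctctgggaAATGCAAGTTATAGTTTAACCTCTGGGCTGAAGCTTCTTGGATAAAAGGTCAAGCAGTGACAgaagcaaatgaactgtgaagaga
Ugt2b38 (chr5:87424204-87424453): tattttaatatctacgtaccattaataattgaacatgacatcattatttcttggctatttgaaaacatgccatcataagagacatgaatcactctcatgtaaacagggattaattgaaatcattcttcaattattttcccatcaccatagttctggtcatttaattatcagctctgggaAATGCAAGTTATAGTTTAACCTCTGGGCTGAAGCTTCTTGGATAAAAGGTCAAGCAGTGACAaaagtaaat
Ugt2b34 (chr5:86906938-86907187): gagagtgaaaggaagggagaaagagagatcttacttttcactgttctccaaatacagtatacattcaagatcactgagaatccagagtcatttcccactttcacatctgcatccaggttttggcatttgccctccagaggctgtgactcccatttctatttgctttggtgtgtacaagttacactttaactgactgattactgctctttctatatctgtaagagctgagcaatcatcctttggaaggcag

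The shared run has 62 bases and ends 7, 24 and 10 bases before the start of Ugt2b5, Ugt2b37 and Ugt2b38. Among 27025 genes with a promoter sequence, these 3 were the only ones to hold it on either strand. In a global alignment the 250 bases were identical over 73.0% of alignment columns between Ugt2b5 and Ugt2b37, 81.5% between Ugt2b5 and Ugt2b38 and 85.2% between Ugt2b37 and Ugt2b38, and over 49.6% to 53.3% between Ugt2b34 and any of these. The run holds the letters GTTTAAC, which 1.54% of the genes with a promoter and 7 of the 49 members with one hold on either strand. These letters were picked after the run was seen, so Ugt2b5, Ugt2b37 and Ugt2b38 are among the 7 by construction. A match is a description of the letters. The letters GTTAAT were counted too. They were held by 7.49% of the genes with a promoter and 14 of the 49 members, without Ugt2b5, Ugt2b37 and Ugt2b38.

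Ugt2b5 had 9.98 and 10.8 FPKM in 24M_1 and 24M_2, against 15.6 and 16.6 FPKM in 2M_1 and 2M_2, giving a log2 change of -0.59 ± 0.08 (SE; 95% interval -0.80 to -0.38; limma adjusted p = 0.0449). Ugt2b37 had 56.2 and 50.6 FPKM in 24M_1 and 24M_2, against 75.4 and 82.7 in 2M_1 and 2M_2, giving a log2 change of -0.56 ± 0.08 (SE), at a limma adjusted p of 0.0472. For both genes the ages did not overlap, and the call ended without either 24M library, at limma adjusted p of 0.140 and 0.0916 for Ugt2b5 and 0.0888 and 0.133 for Ugt2b37 without 24M_1 and without 24M_2. Ugt2b38, the most abundant of the cluster, had 254 and 287 FPKM in 24M_1 and 24M_2 and 365 and 386 in the 2M libraries, a log2 change of -0.47 ± 0.08 (SE) that did not pass (limma adjusted p = 0.0582). Ugt2b34 had 7.58 and 6.24 FPKM in 24M_1 and 24M_2 and 8.29 and 9.87 in the 2M libraries (limma adjusted p = 0.265).

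Summed over the 4 Ugt2b genes, the level was 328 and 355 FPKM in 24M_1 and 24M_2, against 465 and 495 FPKM in 2M. The second table did not hold this order: the sum was 347 FPKM in 24M_3 and 545 in 24M_4, on either side of the 2M libraries. Within it, 24M_3 and 24M_4 had 17.1 and 22.7 FPKM of Ugt2b5, 101 and 49.99 of Ugt2b37, 224 and 471 of Ugt2b38, and 4.84 and 1.17 of Ugt2b34. Reads of Ugt2b5, Ugt2b37 and Ugt2b38 could be shared between these close copies, and how they were assigned is not stated.

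**Figure D2:**
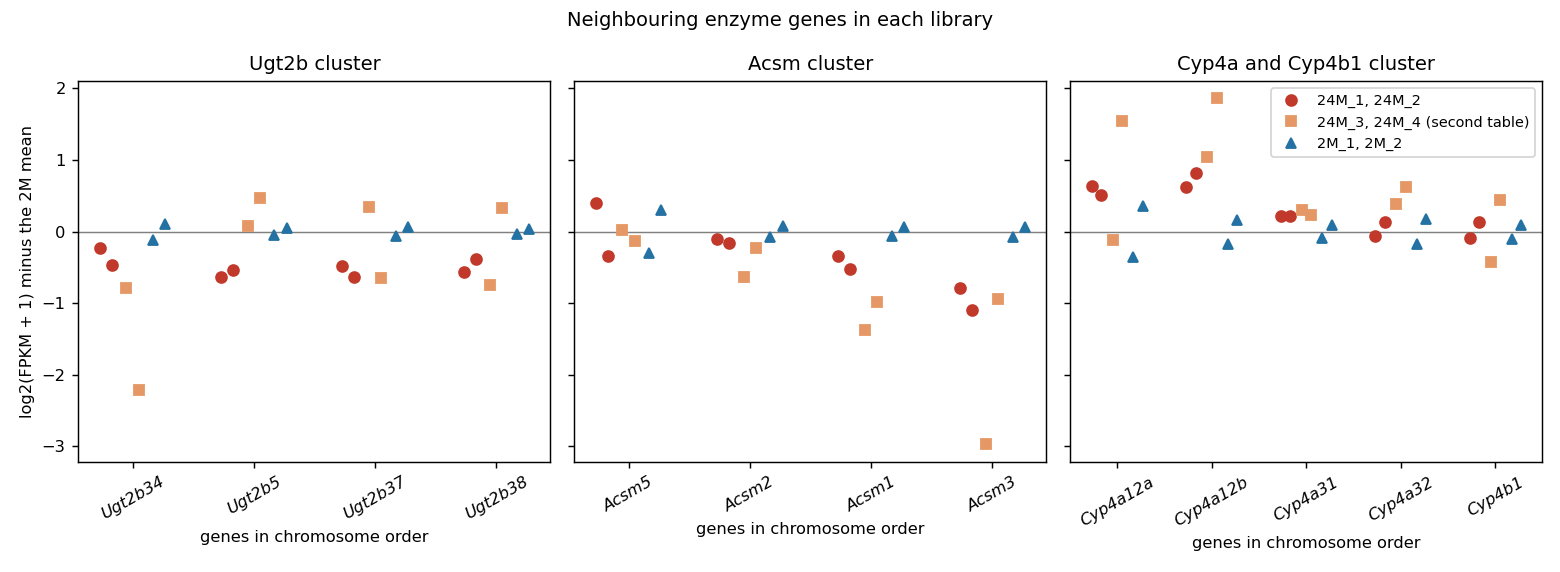
Each symbol is 1 library's log2(FPKM + 1) minus the mean of the 2M libraries, for genes of the Ugt2b, Acsm and Cyp4a clusters in chromosome order, with some neighbours of these genes not drawn. 24M_1 and 24M_2 (circles) lie below the 2M libraries (triangles) for all 4 Ugt2b genes and for Acsm2, Acsm1 and Acsm3, while 24M_3 and 24M_4 (squares, second table) lie on either side of the 2M mean for Ugt2b37 and Ugt2b38.

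The Ugt1a genes on chromosome 1 have first exons of their own and share the others, so the share of reads given to each is uncertain. Of 8 tested none passed, with 4 positive and 4 negative log2 changes. Ugt1a7c was the main form, at 75.3 and 78.6 FPKM in 24M_1 and 24M_2 and 64.4 and 63.5 in the 2M libraries, which did not overlap (log2 change 0.26 ± 0.06, SE; limma adjusted p = 0.122). It stood at 76.1 and 89.0 FPKM in 24M_3 and 24M_4. Ugt1a6a, a phenol-conjugating form, had 1.91 and 2.18 FPKM in 24M_1 and 24M_2 and 2.90 and 3.57 in 2M (limma adjusted p = 0.161), and in 24M_3 and 24M_4 it was at 10.4 and 6.32. The bilirubin-conjugating form Ugt1a1 had 1.92 and 0.114 FPKM in 24M_1 and 24M_2 and 1.98 and 2.34 in the 2M libraries, with a 95% interval of -2.32 to 0.71 around its log2 change of -0.81, and Ugt1a2 was likewise low only in 24M_2, at 0.292 FPKM against 1.90 to 2.03 in the other 3 libraries of the first table. Both genes passed as lower when 24M_1 was left out. Ugt1a5, Ugt1a6b, Ugt1a9 and Ugt1a10 were between 0.895 and 2.79 FPKM in the first table. Ugt3a2 had 216 ± 2.93 FPKM in 24M, against 231 ± 8.07 FPKM for 2M (SD, n = 2 each; limma adjusted p = 0.460), and Ugt3a1 had 40.5 and 34.9 FPKM in 24M_1 and 24M_2 and 44.9 and 37.9 in 2M. Both were higher in the second table, with Ugt3a2 at 321 and 418 FPKM and Ugt3a1 at 55.04 and 77.1 FPKM in 24M_3 and 24M_4.

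Sulfotransferases use the sulfate donor made by Papss1 and Papss2. Of 5 Sult genes 4 were tested and none passed. Sult1c2 had 46.5 and 40.8 FPKM in 24M_1 and 24M_2, against 30.2 and 29.6 FPKM in 2M_1 and 2M_2, without overlap. Its log2 change was 0.53 ± 0.08 (SE; 95% interval 0.32 to 0.73) at a limma adjusted p of 0.0540, and among genes of at least 5 FPKM it passed, at 0.0452. In 24M_3 and 24M_4 Sult1c2 stood at 94.96 and 76.7 FPKM, above both 2M libraries. The phenol sulfotransferase gene Sult1a1 had 5.49 and 6.34 FPKM in 24M_1 and 24M_2 and 8.31 and 8.14 in 2M, a log2 change of -0.42 ± 0.10 (SE), at a limma adjusted p of 0.130, and stood at 15.4 and 10.99 FPKM in 24M_3 and 24M_4, above both 2M libraries. Sult1d1, which sulfates catecholamines in mouse, had 350 ± 30.7 FPKM in 24M, against 314 ± 0.616 FPKM for 2M (SD, n = 2 each; limma adjusted p = 0.373). Sult1b1, next to Sult1d1 on chromosome 5, was at 1.64 to 2.15 FPKM in the first table and overlapped between ages. The hydroxysteroid form Sult2a3 was listed at 0.594 and 0.828 FPKM in 24M_1 and 24M_2, at 1.89 and 2.89 FPKM in 24M_3 and 24M_4, and at 0 in both 2M libraries. It was under the filter and was not tested.

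Medium-chain acyl-CoA synthetases activate fatty acids and aromatic acids such as benzoate, which mitochondria then join to glycine. The 4 Acsm genes lie close together on the plus strand of chromosome 7, all were tested, and Acsm3 was lower. Acsm3 (GRCm38, 119760923 to 119787513) had 81.8 and 65.7 FPKM in 24M_1 and 24M_2, against 135 and 149 FPKM in 2M_1 and 2M_2. The ages did not overlap, and the mean was 48.0% lower in 24M, a log2 change of -0.94 ± 0.12 (SE; 95% interval -1.24 to -0.64; limma adjusted p = 0.0374). Acsm3 was at 17.2 FPKM in 24M_3 and 73.7 in 24M_4, both below the 2M libraries.

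Beside it, 7 markers of the proximal straight tubule had summed levels of 620 and 660 FPKM in 24M_1 and 24M_2 and 681 and 707 FPKM in 2M. In 24M_3 and 24M_4 these sums were 451 and 710 FPKM. Of these 7 markers, Slc22a7 and Slco1a1 were lower and Slc7a12 was higher by limma in 24M_1 and 24M_2 than in 2M. Over all genes tested, 0.813% were lower and 0.761% higher. Slc5a1, Slc6a18, Slc7a13 and Slc22a13 did not pass, with log2 changes of -0.14, 0.29, 0.05 and -0.27. Slc22a7 had 7.32 and 52.8 FPKM in 24M_3 and 24M_4, and Slc7a12 had 23.3 and 8.05 FPKM. Slco1a1 had 60.0 and 57.5 FPKM in 24M_1 and 24M_2, against 94.9 and 118 FPKM in 2M, and 6.74 and 36.0 FPKM in 24M_3 and 24M_4. Slc7a13, which made up most of each sum, had 424 and 472 FPKM in 24M_1 and 24M_2 and 422 and 440 FPKM in 2M. In 24M_3 and 24M_4 it had 281 and 481 FPKM. The part of tubule segment in the Acsm3 result was not tested.

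Acsm1 had 73.5 and 64.5 FPKM in 24M_1 and 24M_2 and 89.2 and 97.9 FPKM in the 2M libraries, a log2 change of -0.43 ± 0.09 (SE) that did not pass (limma adjusted p = 0.0967). It stood at 35.5 and 46.9 FPKM in 24M_3 and 24M_4, also below both 2M libraries. Acsm2, the most abundant form, had 481 ± 12.7 FPKM in 24M, against 526 ± 37.2 FPKM for 2M (SD, n = 2 each; limma adjusted p = 0.423), and 340 and 450 FPKM in 24M_3 and 24M_4. Acsm5 varied within each age, at 28.2 and 16.4 FPKM in 24M_1 and 24M_2 and 16.8 and 26.2 in the 2M libraries.

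**Figure D3:**
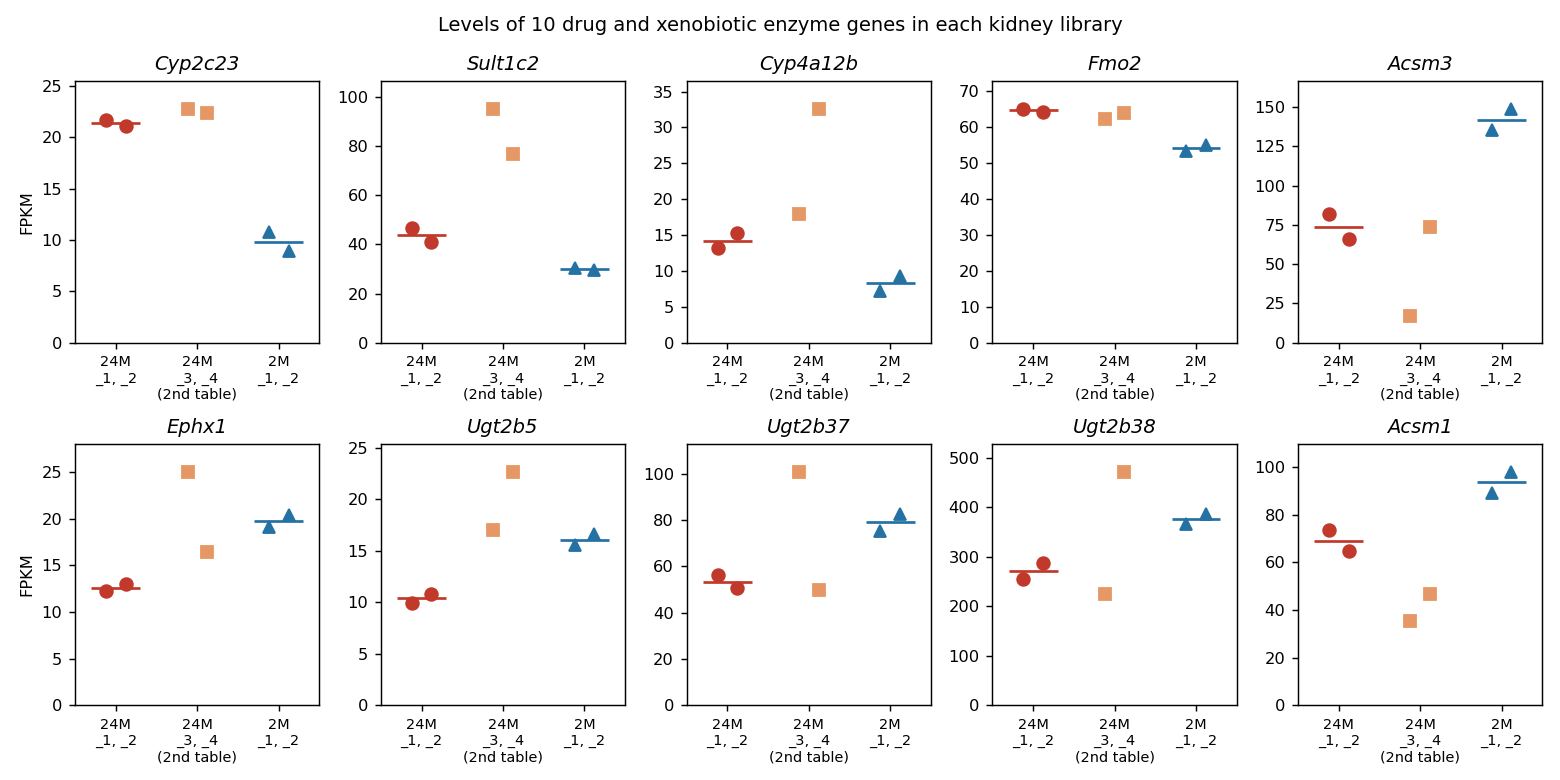
Points are FPKM per library for 10 enzyme genes, with the mean of 24M_1 and 24M_2 and of 2M_1 and 2M_2 as lines; squares are 24M_3 and 24M_4 from the separately made second table, with no mean drawn. For Cyp2c23, Sult1c2, Cyp4a12b and Fmo2 all 24M libraries lie above both 2M libraries, and for Acsm3 and Acsm1 all lie below. For Ugt2b5 24M_3 and 24M_4 lie above the 2M libraries, and for Ephx1, Ugt2b37 and Ugt2b38 they lie on either side of them. In the order of 24M_3 and 24M_4 against 2M, age and table cannot be told apart.

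The 8 enzyme genes under the filter were Cyp2c69, Cyp2f2, Cyp2r1, Cyp2u1, Cyp4f14, Cyp4f15, Sult2a3 and Ugt2a3. Each was at most 1.37 FPKM in every library of the first table. Cyp2r1, a vitamin D hydroxylase, had 1.37 and 0.706 FPKM in 24M_1 and 24M_2 and 0.831 and 0.836 in the 2M libraries, which overlap. Cyp2u1 had 0.751 and 0.737 FPKM in 24M_1 and 24M_2 and 0.658 and 0.774 FPKM in 2M, but 1.71 and 2.37 FPKM in 24M_3 and 24M_4. All comparisons of the second table with 2M use the same 2M libraries as the test. They also cross tables, and the share of all genes above or below both 2M libraries there was not counted. Genes that overlapped between ages in the first table could stand apart too. Slc34a1 had 691 and 813 FPKM in 24M_3 and 24M_4, against 346 and 376 in 2M. Fmo1 had 61.5 and 65.1 FPKM there, against 105 and 119 in 2M.

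The libraries of the second table differed from each other in several enzyme genes. Among 57 enzyme genes at 1 FPKM or more in 24M_3 or 24M_4, 5 were at least 2-fold lower in 24M_3, where 1.59% of the 11681 genes compared were, and 5 were at least 2-fold higher, where 8.94% were. With 1 library on each side these are descriptions without a test. The lower genes were Ces2b, at 0.666 FPKM in 24M_3 and 4.89 in 24M_4, Ces1g at 1.13 and 6.92, Acsm3, Cyp4a12a and Ugt2b38. Of the 5 androgen-responsive genes of mouse kidney, Kap had 6274 FPKM in 24M_3, against 17106 in 24M_4, and Odc1 had 87.7 and 205. Cyp7b1 had 23.4 and 57.1 FPKM in 24M_3 and 24M_4 and Slco1a1 had 6.74 and 36.0, while Gusb was near equal, at 9.29 and 9.60. The part of androgen response in these differences was not tested. The higher genes were Ugt1a2, at 14.6 FPKM in 24M_3 and 2.85 in 24M_4, Ugt2b34, Cyp4v3, Ugt1a10 and Ugt2b37. This is the library with the high macrophage markers, and their part in these differences was not tested.

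**Figure D4:**
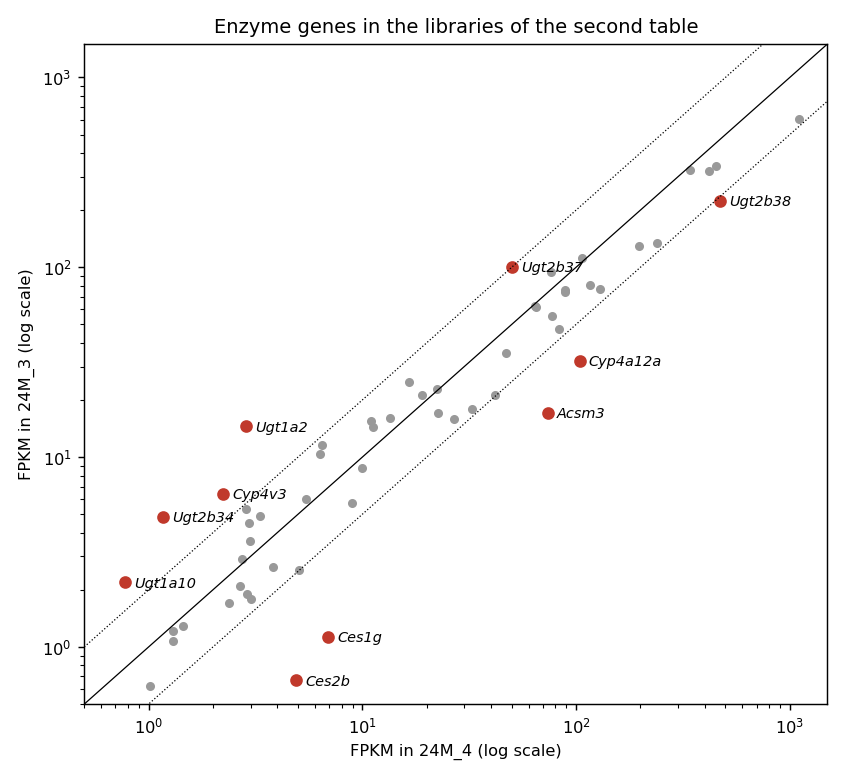
Each point is an enzyme gene at 1 FPKM or more in 24M_3 or 24M_4, with its FPKM in 24M_4 on the horizontal and in 24M_3 on the vertical log axis; the solid line is equality and the dotted lines are 2-fold. The 10 red points lie beyond 2-fold: Ces2b, Ces1g, Acsm3, Cyp4a12a and Ugt2b38 are lower in 24M_3, and Ugt1a2, Ugt2b34, Cyp4v3, Ugt1a10 and Ugt2b37 are higher.

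Genes that work with these enzymes, a list of 43 that holds electron donors, sugar and sulfate donors, other conjugating enzymes and nuclear receptors, had 35 tested members. By limma 0 of the 35 passed in either direction, against 1.57% of all genes tested. At an unadjusted p below 0.05, 5 of the 35 were higher, against 6.96% of all genes, and 7 were lower, against 9.94%. The median log2 change of the 35 was -0.04, and that of all genes tested was -0.02. Papss2, a synthase of the sulfate donor, had 127 and 115 FPKM in 24M_1 and 24M_2, against 95.4 and 91.7 FPKM in 2M, a log2 change of 0.37 ± 0.07 (SE), at a limma adjusted p of 0.0844. The other synthase, Papss1, had 29.96 and 31.1 FPKM in 24M_1 and 24M_2 and 37.1 and 41.2 in 2M, a log2 change of -0.35 ± 0.08 (SE), at a limma adjusted p of 0.119. The monoamine oxidase gene Maob had 2.08 ± 0.417 FPKM in 24M, against 1.17 ± 0.155 FPKM for 2M (SD, n = 2 each; limma adjusted p = 0.176). The P450 reductase gene Por had 60.9 and 58.4 FPKM in 24M_1 and 24M_2 and 56.5 and 60.8 in the 2M libraries. The aryl hydrocarbon receptor gene Ahr had 1.43 and 1.885 FPKM in 24M_1 and 24M_2 and 1.98 and 1.889 in 2M, and the pregnane receptor gene Nr1i2 had 2.72 and 1.70 FPKM in 24M_1 and 24M_2, against 2.43 and 1.36 FPKM in 2M.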

How the data were processed

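Groups and library numbers come from the sample titles. Per the file headers, the deposited values are FPKM of each gene, held in 2 tables: one has 24M_1, 24M_2, 2M_1 and 2M_2, the other 24M_3 and 24M_4. The submitters' processing notes name mm10, DESeq2 1.20.0, featureCounts 1.5.0-p3 and HISAT2 2.0.5 without role or order. How the FPKM were made, and how reads of close copies were assigned, is not given in the sources used here. The larger age mean was at least 0.501 FPKM for every gene of the first table. Depth per library is unknown, because low values showed no whole-read steps; library sums ran from 286198 to 335723 FPKM. Symbols were matched by Ensembl ID for 12528 of 12546 shared genes. Coordinates are from GENCODE on GRCm38, the assembly of mm10, and promoter sequences from RefSeq on GRCm38.p6, which matched 49 of 63 enzyme genes.

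For the first table, log2(FPKM + 1) was fitted by age alone with limma 3.58.1 in R 4.3.3, using empirical Bayes moderation (trend, robust), two-sided, with 2 residual degrees of freedom. The fit took genes that reached 1 FPKM in 2 or more of its 4 libraries. Adjusted p-values are Benjamini-Hochberg over 11437 genes, with 0.05 as the threshold. A change on this scale understates that of low genes. The fit was also run on simulated data with log2 changes of 1 and 2 in either direction. Changes below 1, such as those of Ephx1, Ugt2b5 and Ugt2b37, were not simulated, so that run does not bear on calls of that size. The members and lists were chosen with earlier results of these data known. Genes given in full are those past the threshold, those at an unadjusted p below 0.05 and the 3 most abundant tested members of each family, 33 in all; the others are described to account for every member, and of the genes that work with these enzymes the 4 with the smallest p were to be named by rule, of which 1 is not reported here, and Por, Ahr and Nr1i2 after their values were seen. Pseudocount, filter, scaling, variance model, replicate block and leaving out each library were varied.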

Additional observations from a re-analysis of the deposited data

Results flagged for a closer look

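In the 33 enzyme genes described in full, the 4 libraries of 24M were searched for a library far from the others, with the caveat that 24M_3 and 24M_4 come from a separately made table. For 4 libraries made alike, chance alone gives about 1 such library in 20 groups. That rate does not hold here, as 24M_3 and 24M_4 were made apart. Many of the genes were also picked by a small p, which favours close values in 24M_1 and 24M_2. The library 24M_3 was flagged in 4 genes. A library was flagged by its gap to the next one relative to the range, so a small difference can be flagged. Ces1f stood at 134 FPKM in 24M_3, below the rest. Cyp1b1 stood at 11.6 FPKM, Cyp4a31 at 111 FPKM and Ugt2b37 at 101 FPKM in 24M_3, above the rest. For Cyp4a31 the difference was small, with 106 FPKM in each of the other 24M libraries. Macrophage markers summed to 2208 FPKM in 24M_3, against 155 to 314 in the other 24M libraries, and their part in these values was not tested.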

How the results depend on the processing

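In the fit reported, limma called 180 genes. Other fits called 108 without trend and robust variance (104 of the 180), 43 with a replicate block (36 of the 180), 202 with FPKM scaled to equal library sums (174 of the 180) and 0 to 126 with a library left out (0 to 71 of the 180). Enzyme genes called higher in 24M numbered 1 in the fit reported, 2 with the filter of 5 FPKM, where Sult1c2 joined Cyp2c23, 0 with the replicate block and 0 in every fit with a library left out. Enzyme genes called lower numbered 4 in the fit reported, 2 with log2(FPKM + 0.1) (Acsm3 and Ephx1), 0 without trend and robust variance, 0 with the replicate block and 0 to 3 with a library left out. Of those 4, Acsm3 alone was still called without 24M_1, where Ugt1a1 and Ugt1a2 joined it, and without 24M_2. Deviations of same-numbered libraries from their age mean correlated at -0.06 across genes, and those of crossed libraries at 0.06. With 2 libraries per age these values are mirror images, so they cannot settle whether libraries were handled in pairs. Over the 12 alternatives the limma adjusted p of Cyp2c23 ran from 0.0141 to 0.145, of Acsm3 from 0.0293 to 0.230, of Ephx1 from 0.0258 to 0.226, of Ugt2b5 from 0.0355 to 0.241 and of Ugt2b37 from 0.0315 to 0.236, and none of these 5 changed direction. Ugt2b38 passed when FPKM were scaled to equal library sums, at 0.0315. Among the 33 genes given in full, the 6 that changed direction were not called. With a library left out, their log2 changes ran from -0.083 to 0.16 for Ces1d, -0.15 to 0.049 for Ces2c, -0.027 to 0.12 for Cyp1b1, -0.22 to 0.031 for Cyp2j13, -0.092 to 0.13 for Cyp4b1 and -0.017 to 0.16 for Fmo1, and Cyp4b1 stood at -0.034 by quantile normalization. The cause was not tested. The median change of the enzyme genes ran from -0.07 to -0.02, and 0 of the genes that work with these enzymes were called under any alternative.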
